A study of Mus musculus with 2 samples.

Results

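The genes described here are 10 genes of enterochromaffin cells and of serotonin synthesis, taken by name from the 22253 genes of the count matrix. They are Tph1, Ddc and Slc18a1 of serotonin synthesis and storage, Gch1, Pts and Qdpr of the tetrahydrobiopterin cofactor, the peptide precursor gene Tac1, the secreted lectin gene Reg4, and the transcription factor genes Fev and Lmx1a. The study compared Etv1 mutant with control organoids, which are three-dimensional cultures of gut epithelium, grown from mouse distal small intestine. There were 3 Etv1 mutant and 2 control cultures, which the labels call biological replicates, and all 5 carried the same pair of reporters, Neurog3-RFP and Gcg-Venus, which mark cells entering the endocrine lineage and cells expressing proglucagon. After sorting, each culture's cells received their own hashtag oligonucleotide and all were pooled into 1 RNA library with 1 hashtag library. Neither the kind of Etv1 mutation, the sort gate nor the age of the cultures is given in the labels.

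Enterochromaffin cells are the serotonin-making endocrine cells of the gut lining, and they signal to nerves and to the muscle of the gut wall. Tryptophan hydroxylase, encoded by Tph1 in the gut, needs tetrahydrobiopterin as its cofactor, and aromatic amino acid decarboxylase, encoded by Ddc, turns its product into serotonin. The vesicular monoamine transporter encoded by Slc18a1 loads serotonin into granules, from which it is released together with peptides such as substance P.

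The RNA and hashtag tables shared all 3409 barcodes, of which 2725 passed the cell filter and 1432 were assigned to 1 culture. Mutant cultures 1, 2 and 3 gave 282, 281 and 197 cells with 6235701, 6541047 and 4193197 unique molecular identifiers (UMIs, estimated counts of RNA molecules), and control cultures 1 and 2 gave 323 and 349 cells with 7254380 and 7000900 UMIs. Hashtag counts were shallow, with a median of 71 per barcode, of which the top hashtag held 43.4%, so a cell can have been given to the wrong culture. Etv1 itself, the mutated gene, had 20, 20 and 13 UMIs in mutant cultures 1, 2 and 3 and 45 and 44 UMIs in control cultures 1 and 2, which, scaled to library depth as CPM, are 3.21, 3.06 and 3.10 CPM in mutant cultures against 6.20 and 6.28 CPM in control cultures, without overlap. Nearly all of these UMIs lay in endocrine-like cells, where Etv1 had 17, 18 and 13 UMIs (167, 205.4 and 146 CPM) in mutant cultures, against 43 and 44 UMIs (204.6 and 271 CPM) in control cultures, with mutant culture 2 just above control culture 1. The level over all cells thus also carries the number of endocrine-like cells, and the 2 cannot be told apart in it. The endocrine-like level rested mostly on 1 cell in each mutant culture. The cell richest in Etv1 held 17, 16 and 11 UMIs in mutant cultures 1, 2 and 3, and 15 and 18 UMIs in control cultures 1 and 2. Because the labels do not say which bases of Etv1 were changed, the Etv1 level does not show whether the remaining transcripts are intact. Cells were grouped into 8 classes by clustering and named from marker genes that include none of the 10. The 10 genes were not kept out of the clustering itself, so levels by class describe the cells and are not independent of these genes. Clustering without the 10 gave 55 endocrine-like and 81 goblet/Paneth-like cells, against 54 and 106 here. The class named enteroendocrine-like held 54 cells, with 9 of 11 endocrine markers past the naming bounds and Chgb, Chga, Neurod1 and Neurog3 among its leading genes. Of other cell types' markers, the tuft gene Dclk1 had 5 UMIs in it, the immune gene Lyz2 1 and the endothelial genes Pecam1 and Kdr 1 and 2, and the 4 mesenchymal markers were at 0 UMIs in every culture. Other epithelial markers were present, however, with 2451 UMIs of the Paneth gene Defa30 in 40 of the 54 cells, 414 of the goblet gene Tff3 in 31 and 299 of the goblet gene Spink4 in 46. The enterocyte genes Krt20 and Sis had 379 UMIs in 38 and 364 UMIs in 45 of these cells. In this class 2 Paneth and 2 enterocyte markers also passed the naming bounds, and the Paneth gene Defa34 was among its 10 leading genes. The part of these transcripts in the results was not tested.

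In mm10 coordinates of the GENCODE vM21 annotation, Tph1 lies at chr7:46644641-46672537, Ddc at chr11:11814101-11898144, Slc18a1 at chr8:69037711-69089235, Gch1 at chr14:47153895-47189413, Pts at chr9:50521617-50528724, Qdpr at chr5:45434021-45450236 and Fev at chr1:74881509-74885419, all on the minus strand. Tac1 lies at chr6:7554879-7565834, Reg4 at chr3:98222156-98236748 and Lmx1a at chr1:167689237-167848741, on the plus strand. Ddc, Slc18a1, Gch1 and Qdpr overlap other annotated genes there, and since the sources used here do not give the strand setting of the counting, some of their counts may come from these neighbours.

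The start regions of 4 members are shown because these members stand for the patterns described in the next paragraphs, with Tph1 and Fev found mostly in endocrine-like cells, Reg4 shared with goblet/Paneth-like cells, and Gch1 shared with enterocyte-like cells. Each sequence is the 250 bases before the annotated start from RefSeq, build GRCm38.p6, read along the gene's strand. The windows are chr7:46672538-46672787 on the minus strand for Tph1, chr1:74885409-74885658 on the minus strand for Fev, of which 11 bases lie in an annotated exon of Fev, chr3:98221906-98222155 on the plus strand for Reg4, and chr14:47189414-47189663 on the minus strand for Gch1. Capitals mark the motif letters that were found, on either strand.

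Tph1: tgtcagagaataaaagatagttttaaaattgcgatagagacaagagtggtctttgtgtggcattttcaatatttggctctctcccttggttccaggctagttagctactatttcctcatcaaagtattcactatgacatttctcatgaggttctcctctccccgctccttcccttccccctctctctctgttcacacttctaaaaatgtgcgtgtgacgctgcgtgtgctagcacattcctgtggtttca
Fev: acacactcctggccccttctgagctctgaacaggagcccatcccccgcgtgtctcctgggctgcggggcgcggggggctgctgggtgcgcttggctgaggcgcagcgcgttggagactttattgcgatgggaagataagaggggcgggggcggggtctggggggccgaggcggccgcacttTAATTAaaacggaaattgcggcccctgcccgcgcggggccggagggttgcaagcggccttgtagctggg
Reg4: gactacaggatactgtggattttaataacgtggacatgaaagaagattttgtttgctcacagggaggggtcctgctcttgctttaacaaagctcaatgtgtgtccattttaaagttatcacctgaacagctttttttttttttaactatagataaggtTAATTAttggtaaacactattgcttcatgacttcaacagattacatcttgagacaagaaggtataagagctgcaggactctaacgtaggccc
Gch1: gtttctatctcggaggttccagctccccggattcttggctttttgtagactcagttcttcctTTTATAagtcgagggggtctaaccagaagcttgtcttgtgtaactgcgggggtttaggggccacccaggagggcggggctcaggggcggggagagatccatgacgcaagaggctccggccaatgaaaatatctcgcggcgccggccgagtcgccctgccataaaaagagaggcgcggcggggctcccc

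4 motifs were searched on both strands. TAATTA, letters that homeodomain factors such as Lmx1a can bind, stood in 4.84% of 32851 promoter windows of the same length, and TATAAA in 12.4%. CAGATG, an E-box of the kind used by Neurog3 and Neurod1, stood in 14.4%. CCGGAA, letters that ETS factors such as Etv1 and Fev can bind, stood in 12.03%. The Fev and Reg4 windows each held TAATTA, the Gch1 window held TTTATA, which is TATAAA on the other strand, and the Tph1 window held none of the 4, while the window of its second annotated start held TAATTA. The ETS letters occurred in 1 of the 11 windows of 9 members, that of Pts, which held it at 2 places. The number of CG dinucleotides was 5 in the Tph1 window and 2 in that of Reg4, against 22 for Fev and 17 for Gch1, and the median of all windows was 6.

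Tph1, the first and limiting enzyme of serotonin synthesis, was found almost wholly in the endocrine-like class. It had 105 of its 118 UMIs (89.0%) in these 54 cells, a level of 161 CPM (exact Poisson 95% interval 132 to 195, for counting error only), and 11 of the 54 cells (20.4%, exact binomial interval 10.6 to 33.5%) held at least 1 UMI. None of 272 stem-like and 283 cycling-like cells held one, although their median depths of 21043 and 32647 UMIs were above the 9724 UMIs of endocrine-like cells. With a floor of 3 cells in place of the exact interval, a count of 0 there allows shares of about 1.10% and 1.06%. After every cell was thinned to 3832 UMIs, 8 of 50 endocrine-like cells (16.0%) kept a Tph1 UMI, and none of 1238 cells outside the class did. Thinning left out 1 enterocyte-like cell with 4 Tph1 UMIs and 1 goblet/Paneth-like cell with 3, which were too shallow at 3734 and 1427 UMIs. Over the 5 cultures the endocrine-like level averaged 118 ± 160 CPM (SD), and 1 culture at 0 made its range overlap that of every other class.

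Ddc, the decarboxylase that completes serotonin and also makes dopamine from dopa, was spread over all classes. Its level per class averaged 243 ± 72.7 CPM in endocrine-like cells, 84.6 ± 43.6 in enterocyte-like, 46.3 ± 2.90 in stem-like and 38.9 ± 3.16 in cycling-like cells (SD, n = 5 cultures), and no 2 neighbours in this order overlapped between cultures. The lowest level was 22.5 ± 12.1 CPM in goblet/Paneth-like cells, which overlapped the 3 unnamed clusters. Endocrine-like cells, being few, held 9.77% of the Ddc UMIs, and enterocyte-like cells 36.2%. Within the enterocyte-like class the cluster led by Apoa1 and Apoc3 reached 198 CPM (179 to 219) and the cluster led by Lgals3 and Areg 49.0 CPM (42.5 to 56.3).

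Slc18a1, the vesicular transporter that fills endocrine granules with serotonin, averaged 123 ± 56.2 CPM in endocrine-like and 13.1 ± 6.98 CPM in goblet/Paneth-like cells (SD, n = 5 cultures), with no overlap between the 2 classes. The endocrine-like class held 65.2% of its UMIs, in 36 of 54 cells, and the goblet/Paneth-like class 19.3%, in 19 of 106 cells (17.9%, interval 11.2 to 26.6%, median depth 16808 UMIs). In stem-like cells 2 of 272 (0.735%, median depth 21043 UMIs), in cycling-like cells 1 of 283 and in enterocyte-like cells 12 of 237 (5.06%) held a UMI. Slc18a1 was thus also detected in the goblet/Paneth-like class, at a share above that of the deeper stem-like and cycling-like cells.

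The cofactor genes were not limited to endocrine-like cells. Gch1, the GTP cyclohydrolase that starts and limits tetrahydrobiopterin synthesis, averaged 115 ± 57.7 CPM in endocrine-like and 88.6 ± 16.2 CPM in enterocyte-like cells (SD, n = 5 cultures), which overlapped, and enterocyte-like cells lay above the next class, goblet/Paneth-like cells at 16.6 ± 9.96 CPM, in all 5 cultures without overlap. Enterocyte-like cells held 62.7% of the Gch1 UMIs, and stem-like cells had the lowest level, 2.78 ± 2.11 CPM. Here the enterocyte-like cluster led by Lgals3 and Areg was the higher one, with 101 CPM (91.2 to 111) against 53.3 CPM (43.5 to 64.7) in the Apoa1 and Apoc3 cluster, the reverse of the order for Ddc.

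Pts, whose product carries out the step after Gch1, ranged between 32.2 ± 21.1 CPM in unnamed cluster 9 and 69.9 ± 6.70 CPM in stem-like cells, and each class overlapped the next. Qdpr, the dihydropteridine reductase that regenerates the cofactor, ranged between 80.1 ± 8.07 CPM in goblet/Paneth-like and 160 ± 38.3 CPM in enterocyte-like cells, again with overlap between all neighbours. Endocrine-like cells held 1.90% of the Pts and 2.14% of the Qdpr UMIs. Classes farther apart in the order did not all overlap. Pts had 41.9 to 48.7 CPM in goblet/Paneth-like and 62.4 to 80.5 CPM in stem-like cells, and Qdpr had 70.5 to 90.2 CPM in goblet/Paneth-like and 122 to 140 CPM in cycling-like cells.

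Tac1, the precursor of substance P, resembled Tph1, with 109 of 119 UMIs (91.6%) in the endocrine-like class, but these lay in 7 of its 54 cells. Its level there averaged 152 ± 159 CPM over the 5 cultures (SD), with 2 cultures at 0. Reg4, a secreted C-type lectin of endocrine and goblet lineage cells, was high in 2 classes, with 1875 ± 2082 CPM in endocrine-like and 1281 ± 352 CPM in goblet/Paneth-like cells (SD, n = 5), which overlapped. The goblet/Paneth-like class held 58.6% of the Reg4 UMIs and the endocrine-like class 34.1%, and the next level, 143 ± 74.4 CPM in unnamed cluster 9, lay below goblet/Paneth-like cells in every culture. In the stem-like, cycling-like and enterocyte-like classes 12.2 to 20.2% of cells held a Reg4 UMI at class means of 6.17 to 12.7 CPM, with median depths of 21043, 32647 and 27065 UMIs, and the part of free RNA in this low level was not tested.

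Fev, an ETS family factor known from serotonin neurons and from enteroendocrine cells, had 120 of 123 UMIs (97.6%) in the endocrine-like class. It was found in 35 of 54 endocrine-like cells (64.8%) and averaged 185 ± 67.1 CPM there over the 5 cultures (SD), above every other class in all of them. No Fev UMI was found in 272 stem-like, 283 cycling-like, 237 enterocyte-like or 106 goblet/Paneth-like cells, and the other 3 UMIs lay in unnamed cluster 6. Lmx1a, a LIM homeodomain factor that acts ahead of Tph1 in mouse enterochromaffin cells, was near the limit of detection, with 11 of its 12 UMIs in 6 endocrine-like cells. The plot of levels by class shows these patterns side by side.

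**Figure D1:**
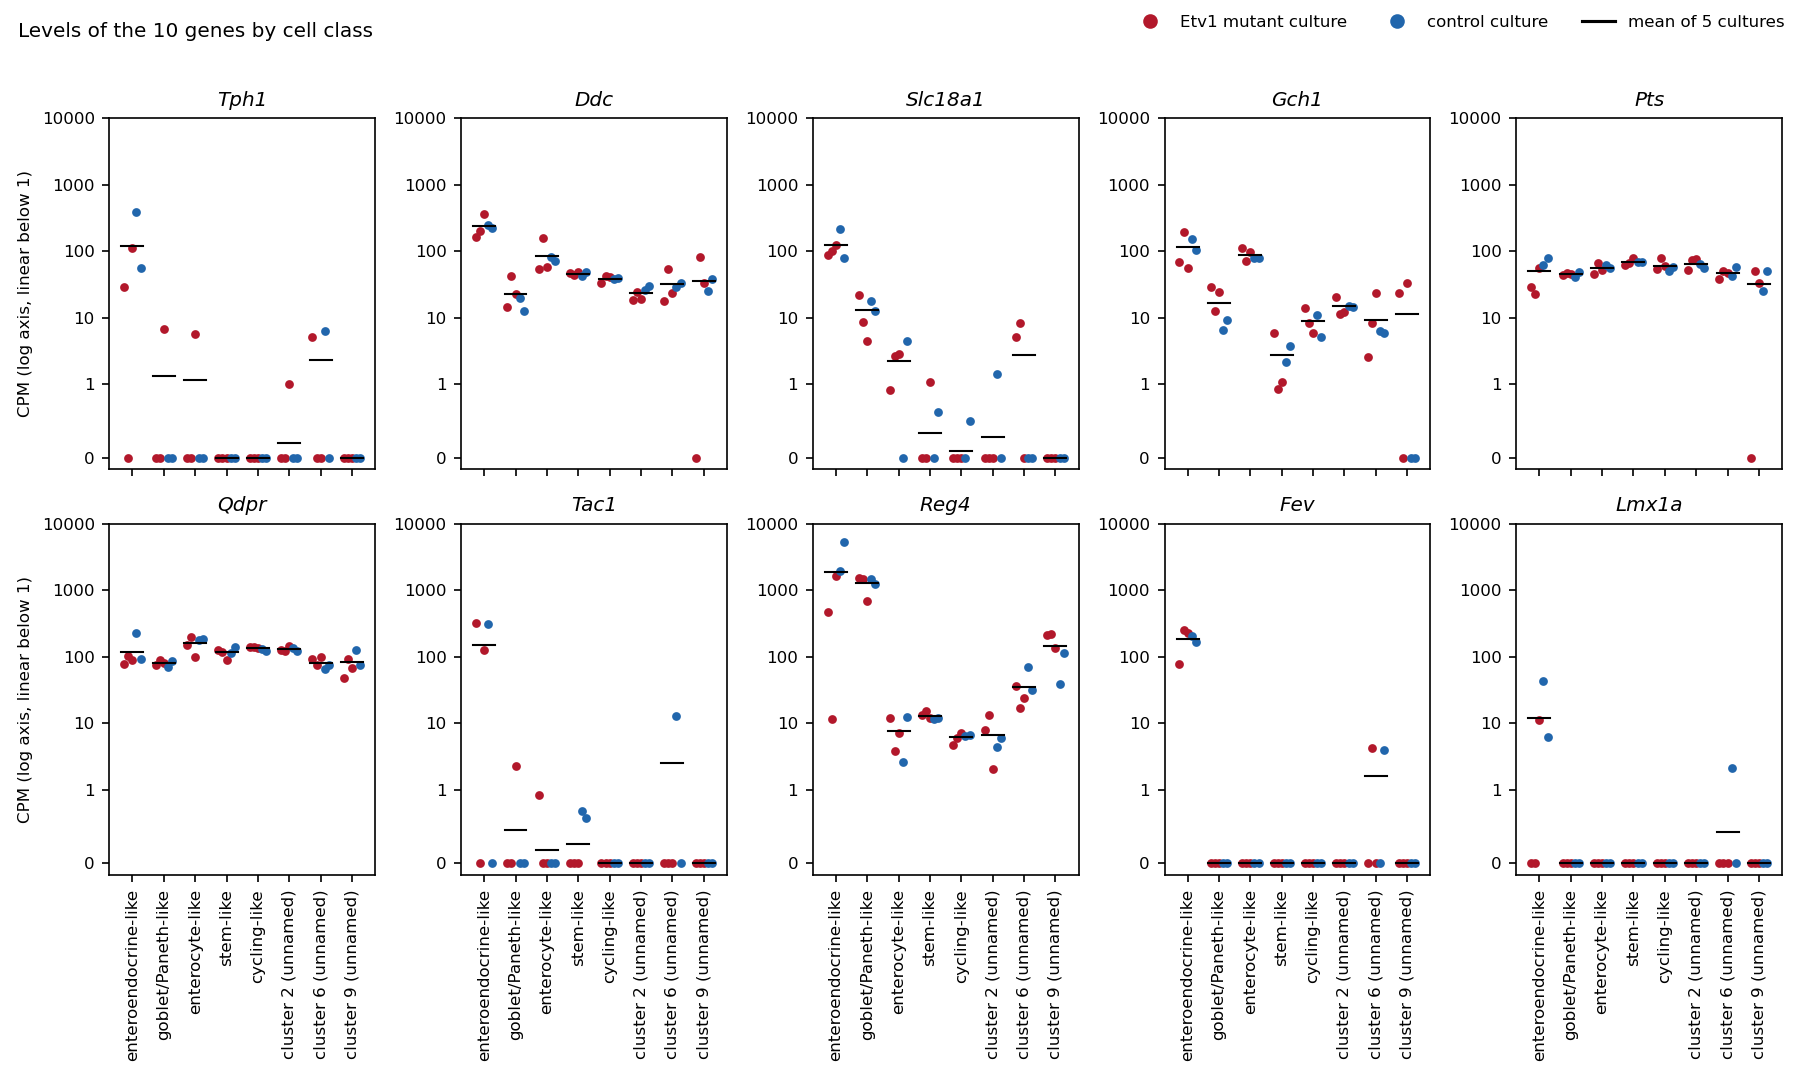
Level of each of the 10 genes (y axis, CPM, log scale, linear below 1) in 8 cell classes (x axis), with 1 point per culture (red, Etv1 mutant; blue, control) and a line at the mean of the 5 cultures. Tph1, Tac1, Fev and Lmx1a stand out in endocrine-like cells, Reg4 in endocrine-like (1875 CPM) and goblet/Paneth-like cells (1281 CPM), and Pts and Qdpr are present in every class, with class means of 32.2 to 69.9 and 80.1 to 160 CPM.

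Within the endocrine-like class the 10 genes did not mark the same cells. 8 of the 54 cells held at least 3 Tph1 UMIs, and these 8 held 102 of the 105 Tph1 UMIs of the class. One cell of mutant culture 1 held 3 Tph1 UMIs and one of mutant culture 3 held 10, while 4 cells of control culture 1 held 41, 21, 13 and 6 and a pair in control culture 2 held 4 each. In these 8 cells Chga and Chgb were found in all 8, Ddc in 7, Slc18a1, Tac1 and Reg4 in 6 each, and Fev and Lmx1a in 5 each. Of the hormone genes, Sct was found in 6 of the 8 cells with 33 UMIs, Cck in 3 and Pyy in 1, and none of the 8 held Gcg, Ghrl, Nts or Sst. Over all 54 cells Sst had 0 UMIs and Nts was found in 2.

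All 7 endocrine-like cells with Tac1 also held Tph1, and none of the 43 cells without Tph1 held Tac1. The reverse did not hold, as 4 of the 11 cells with Tph1 held no Tac1, and the counts did not run in step. The cell richest in Tph1, with 41 UMIs, had 1 Tac1 UMI, and a cell with 3 Tph1 UMIs had 33. Lmx1a was found in 5 of 11 cells with Tph1 and in 1 of 43 without. Fev was found in 28 of the 43 cells without Tph1, Slc18a1 in 27, Ddc in 29 and Gch1 in 22, so these 4 genes reached well beyond the Tph1 cells. Reg4 was found in 15 of the 43. A single Tph1-holding cell of control culture 2, which also had 3822 Cck and 943 Gcg UMIs, held 657 of that culture's 862 endocrine-like Reg4 UMIs.

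**Figure D2:**
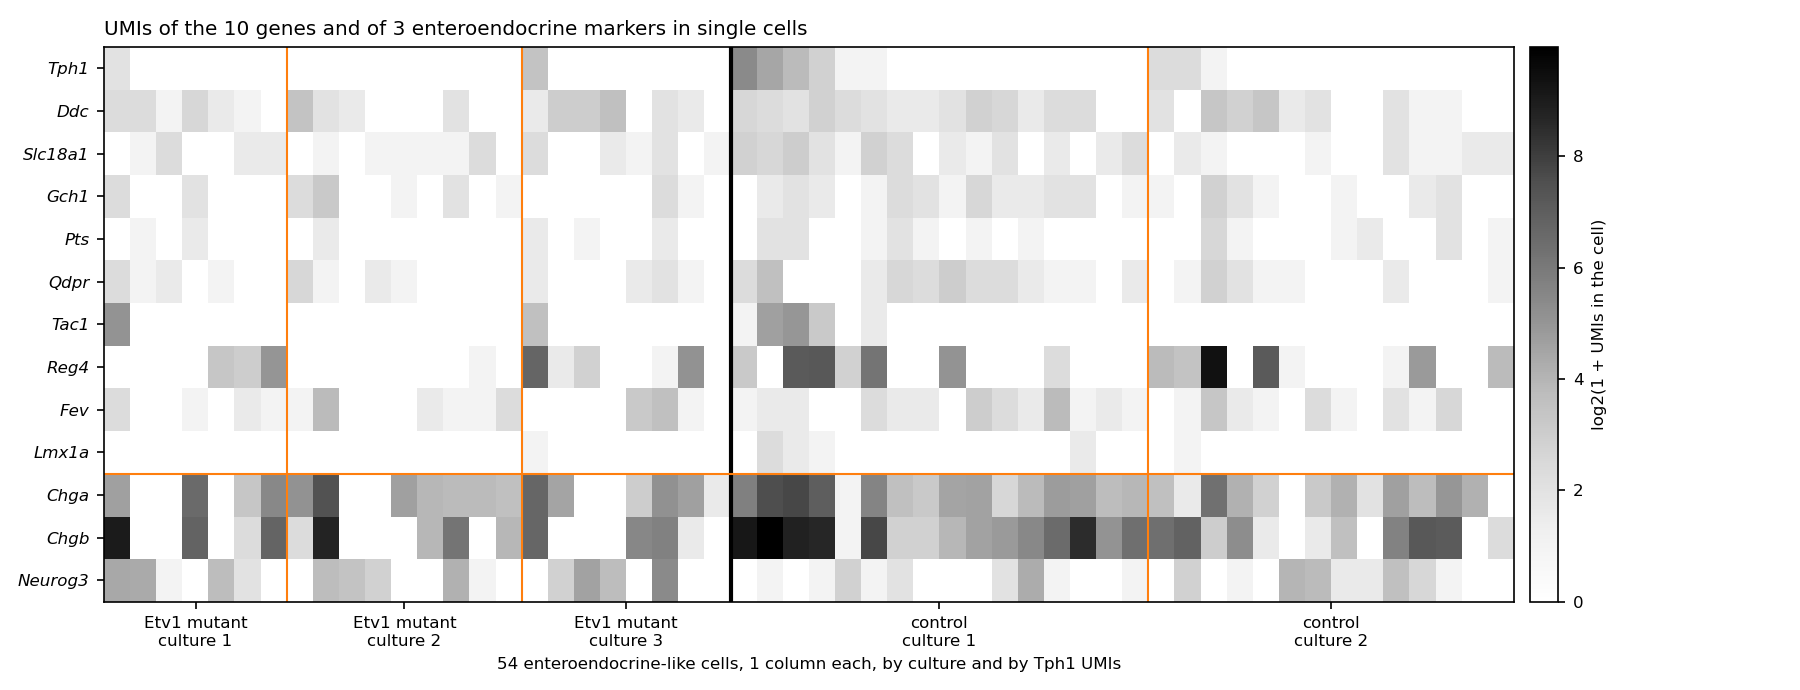
UMIs of the 10 genes and of Chga, Chgb and Neurog3 (rows) in each of the 54 endocrine-like cells (columns), shaded as log2(1 + UMIs), with mutant cultures 1 to 3 left and control cultures 1 and 2 right of the thick line, and cells sorted by Tph1 within a culture. Tph1 and Tac1 fill the first columns of control culture 1 and single cells of mutant cultures 1 and 3, whereas Fev, Slc18a1 and Ddc are scattered over most columns.

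By per-cell log2(1 + counts per 10000), the 5 genes most like Tph1 among 9036 genes over the 54 cells were Ramp3, a receptor accessory protein gene (Pearson r = 0.84), Cwh43 (r = 0.80), Tac1 (r = 0.74), Scn3a, a sodium channel subunit gene (r = 0.73), and Olfr78, an odorant receptor gene (r = 0.64). Among the other members r was 0.62 for Lmx1a, 0.52 for Reg4, 0.45 for Slc18a1, 0.33 for Ddc and −0.07 for Fev. The 5 genes most like Reg4 among 11817 genes over all 1432 cells were Spink4 (r = 0.67), Selenom (0.60), Fcgbp (0.56), 5330417C22Rik (0.56) and Lyz1 (0.55), of which Spink4 and Fcgbp are goblet genes and Lyz1 is a Paneth gene. These correlations describe the cells of 1 pooled library, which share depth and culture, and Ramp3 and Tac1 were found in only 5 and 7 of the 54 cells.

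The comparison between genotypes asks which of the 10 genes differ when Etv1 is mutated, with the culture as the replicate. UMIs were summed per culture and tested with edgeR's quasi-likelihood test and Benjamini-Hochberg adjustment over all genes tested. Over all cells none of the 9 members tested passed at an adjusted p of 0.05, where 0.00904% of 11061 genes passed, the single gene being that of the peptide hormone Pyy, and 2 of the 9, Slc18a1 and Reg4, had an unadjusted p under 0.05, as did 337 of all genes (1.84% of genes in the mutant-lower direction of both), while DESeq2 called 1 member, Reg4, among its 9 genes. In the endocrine-like class none of the 8 members tested passed, where 0.0522% of 1916 genes passed, again Pyy alone, and 2 members, Tph1 and Reg4, had an unadjusted p under 0.05, as did 84 genes (2.24% of genes in the mutant-lower direction of both), while DESeq2 called 2 genes and no member. The median log2 fold change was −0.72 over the 9 members and 0.00 over all genes in all cells, and −0.43 over the 8 members and 0.02 over all genes in endocrine-like cells. 6 of 9 members in all cells and 7 of 8 in endocrine-like cells lay below 0, against 49.0% and 48.3% of all genes. Among these, Qdpr in all cells (−0.01, SE 0.120) lay close to 0. So did Tac1 (−0.05, SE 1.18) and Fev (−0.04, SE 0.420) in endocrine-like cells. In sums over all cells, fewer cells of a type and less RNA per cell cannot be told apart. Endocrine-like cells made up 2.48, 3.203 and 4.06% of mutant cultures 1, 2 and 3 and 4.95 and 4.01% of control cultures 1 and 2, a difference of −1.23 percentage points (two-sided exact permutation test, p = 0.3, smallest possible 0.1), with overlap.

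Tph1 had 5, 0 and 18 UMIs in mutant cultures 1, 2 and 3, against 86 and 9 UMIs in control cultures 1 and 2, over all cells. In endocrine-like cells it had 3, 0 and 10 UMIs in mutant cultures, which are 29.5, 0 and 112 CPM, against 83 and 9 UMIs in control cultures, which are 395 and 55.5 CPM. Control culture 1 was high, mutant culture 2 had none, and mutant culture 3 lay above control culture 2, so the groups overlapped. The log2 fold change was −2.21 (SE 1.17) in all cells and −2.28 (SE 0.943) in endocrine-like cells (edgeR, adjusted p = 1.0 and 0.946, with a range over the alternatives of 0.974 to 1.0 and of 2.19e-04 to 1.0).

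The difference in Tph1 rested on control culture 1, without which it was 0.21 in all cells and −0.27 in endocrine-like cells. Without control culture 2 the endocrine-like value was −3.04 and passed (edgeR adjusted p = 0.0441), as it did with no filter on low counts (−2.36, edgeR adjusted p = 2.19e-04), the lower end of that range. The cell richest in Tph1, with 41 UMIs, was placed in control culture 1. MULTIseqDemux gave it several hashtags, and calling within each cell placed it in control culture 2. A barcode with 6 Tph1 UMIs was left out because HTODemux gave it several hashtags. Both other methods placed it in mutant culture 2, so the 0 Tph1 UMIs of that culture depend on the call. Barcodes with 7 and 5 Tph1 UMIs had no HTODemux hashtag. MULTIseqDemux placed them in mutant culture 3, and calling within each cell gave them no culture. With the calls of MULTIseqDemux the endocrine-like value was −0.79, and with calling within each cell −1.40. The 11 endocrine markers summed to 11221, 12176 and 7579 CPM in endocrine-like cells of mutant cultures and to 21455 and 7568 CPM in those of control cultures, so control culture 1 was also high in these, and their part in the Tph1 result was not tested.

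Measured as cells rather than UMIs, after thinning, 0, 0 and 0.568% of cells in mutant cultures 1, 2 and 3 held Tph1, against 1.66 and 0.629% in control cultures 1 and 2. All mutant cultures lay below both control cultures, with a mean difference of −0.953 percentage points (two-sided exact permutation test, p = 0.1, the smallest that 10 splits allow). These shares come from 1 random thinning and rest on few cells. Mutant culture 3 and control culture 2 lay so close that a single cell can change their order. Without thinning the shares were 1.06, 0 and 2.03% in mutant and 2.48 and 0.860% in control cultures, which overlapped (exact permutation p = 0.5). With MULTIseqDemux calls they were 0, 0.330 and 1.35% in mutant and 1.18 and 0.493% in control cultures, which also overlapped (−0.280 points, exact permutation p = 0.6). Counting only cells with at least 3 Tph1 UMIs, unthinned, the difference was −0.280 points (exact permutation p = 0.7). With calling within each cell the shares were 0.585, 0 and 0.427% in mutant and 2.25 and 0.648% in control cultures, without overlap (−1.11 points, exact permutation p = 0.1). Of the endocrine-like cells, 1 of 7, 0 of 9 and 1 of 8 held Tph1 in mutant cultures 1, 2 and 3, against 6 of 16 and 3 of 14 in control cultures 1 and 2.

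Ddc had 232, 507 and 186 UMIs in mutant cultures 1, 2 and 3, which are 37.2, 77.5 and 44.4 CPM, against 365 and 317 UMIs in control cultures 1 and 2, which are 50.3 and 45.3 CPM. Mutant culture 2 was the highest and mutant culture 1 the lowest, with both control cultures between them. The log2 fold change was 0.15 (SE 0.294, edgeR adjusted p = 1.0) in all cells and 0.01 (SE 0.339, edgeR adjusted p = 0.997) in endocrine-like cells, and without mutant culture 2 it was −0.25 in all cells. In enterocyte-like cells, the largest source of Ddc, the levels were 53.7, 160 and 57.6 CPM in mutant and 81.2 and 70.6 CPM in control cultures, a log2 fold change of 0.31 (SE 0.429, edgeR adjusted p = 1.0) that was −0.46 without mutant culture 2. That class has 0.0% of its 7228 genes passing edgeR (185 with an unadjusted p under 0.05, and 0 by DESeq2), and none of the 5 members tested passed.

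Slc18a1 had 18, 18 and 16 UMIs in mutant cultures 1, 2 and 3, against 56 and 27 UMIs in control cultures 1 and 2. These are 2.89, 2.75 and 3.82 CPM in mutant and 7.72 and 3.86 CPM in control cultures, so all mutant cultures lay below both control cultures, mutant culture 3 by little. Slc18a1 and Reg4 were the 2 of 9 members without overlap in all cells, both with the mutant cultures lower, as were 7.8% of all genes, while no member lay above without overlap, as 9.15% of genes did. The log2 fold change of Slc18a1 was −0.91 (SE 0.367, edgeR unadjusted p = 0.0411, edgeR adjusted p = 1.0), and without control culture 1 it was −0.30. In endocrine-like cells the values were 88.5, 103 and 124 CPM in mutant cultures and 219 and 80.1 CPM in control cultures, with control culture 2 the lowest of all 5, a log2 fold change of −0.55 (SE 0.451, edgeR adjusted p = 0.946) that was 0.34 without control culture 1.

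The 3 cofactor genes were close between genotypes over all cells. Gch1 had 31.9, 28.1 and 25.5 CPM in mutant cultures 1, 2 and 3 and 28.1 and 18.6 CPM in control cultures 1 and 2, with control culture 2 the lowest and the others together (log2 fold change 0.28, SE 0.194, edgeR adjusted p = 1.0, −0.01 without control culture 2). Pts had 51.8, 70.0 and 64.6 CPM in mutant and 58.6 and 60.0 CPM in control cultures (0.06, SE 0.140). Qdpr had 130, 145 and 112 CPM in mutant and 132 and 126 CPM in control cultures (−0.01, SE 0.120). For Pts and Qdpr the control cultures lay within the range of the mutant cultures.

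In endocrine-like cells Qdpr had 8, 9 and 8 UMIs in mutant cultures 1, 2 and 3, which are 78.7, 103 and 89.95 CPM, against 47 and 15 UMIs in control cultures 1 and 2, which are 224 and 92.4 CPM. Control culture 1 was high and control culture 2 lay within the mutant range (log2 fold change −0.84, SE 0.431, edgeR adjusted p = 0.946, −1.30 without control culture 2). Gch1 there stood at −0.31 (SE 0.484, edgeR adjusted p = 0.968), with 7, 17 and 5 UMIs in mutant and 32 and 17 in control cultures. Without mutant culture 2 it was −1.02, without mutant culture 1 −0.0892, without mutant culture 3 −0.0154, without control culture 1 −0.0393 and without control culture 2 −0.53. Pts, with 3, 2 and 5 UMIs in mutant and 13 and 13 in control cultures, was too low to be tested.

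In goblet/Paneth-like cells Gch1 was the 1 of 4 members tested without overlap, with the mutant cultures higher, as were 13.7% of 5101 genes. It had 8, 3 and 11 UMIs in mutant cultures 1, 2 and 3, which are 29.4, 12.9 and 24.8 CPM, against 3 and 6 UMIs in control cultures 1 and 2, which are 6.61 and 9.42 CPM. Of all genes 1.71% passed an unadjusted 0.05 in that direction, and the log2 fold change was 1.36 (SE 0.596, edgeR unadjusted p = 0.0432, edgeR adjusted p = 1.0). That class has 0.0% of genes passing edgeR (203 with an unadjusted p under 0.05), and DESeq2 called 1 gene, Ly6e. In enterocyte-like cells, which held most Gch1, the levels were 113, 72.2 and 96.4 CPM in mutant and 80.6 and 80.9 CPM in control cultures, which overlapped (log2 fold change 0.20, SE 0.214, edgeR adjusted p = 1.0).

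Tac1 had 34, 0 and 12 UMIs in mutant cultures 1, 2 and 3 over all cells, against 72 and 1 UMIs in control cultures 1 and 2. Control culture 1 was high, and mutant culture 2 and control culture 2 had at most 1 UMI. By these calls each group held a high and an empty culture. The left-out barcode that both other hashtag methods placed in mutant culture 2 held 13 Tac1 UMIs. The log2 fold change was −0.90 (SE 1.27, edgeR adjusted p = 1.0) in all cells and −0.05 (SE 1.18, edgeR adjusted p = 0.997) in endocrine-like cells. Without control culture 1 it was 4.08 in all cells and 7.10 in endocrine-like cells, where the remaining control culture had 0 UMIs, so that 7.10 depends on the prior count and is no bound. In endocrine-like cells Tac1 lay in 1 of 7, 0 of 9 and 1 of 8 cells of mutant cultures and in 5 of 16 and 0 of 14 cells of control cultures.

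Reg4 gave the smallest p of the 10 genes over all cells, at rank 16 of 11061. It had 532, 416 and 482 UMIs in mutant cultures 1, 2 and 3, which are 85.3, 63.6 and 115 CPM, against 1143 and 1729 UMIs in control cultures 1 and 2, which are 158 and 247 CPM. All 3 mutant cultures lay below both control cultures. The mean was 88.0 ± 25.8 CPM in mutant (SD, n = 3) and 202 ± 63.2 CPM in control cultures (SD, n = 2), a log2 fold change of −1.21 (SE 0.257, edgeR adjusted p = 1.0). DESeq2 gave −1.20 with an adjusted p of 0.0115, the low end of a range of 0.0115 to 1.0 over the alternatives, and over all cells no other alternative run brought Reg4 past the threshold. With the calls of MULTIseqDemux the value was −0.55.

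By class, Reg4 lay lower in all mutant cultures in endocrine-like cells and overlapped between genotypes in goblet/Paneth-like cells, and the difference between the classes was not tested. In endocrine-like cells Reg4 had 47, 1 and 146 UMIs in mutant cultures 1, 2 and 3, which are 462, 11.4 and 1642 CPM, against 409 and 862 UMIs in control cultures 1 and 2, which are 1947 and 5313 CPM. Mutant culture 2 was almost empty, control culture 2 was the highest, and the groups did not overlap, which made Reg4 the 1 of 8 members tested so placed there, as were 9.6% of genes, while none lay above without overlap, as 10.2% of genes did. The log2 fold change was −2.37 (SE 1.02, edgeR adjusted p = 0.946, range over the alternatives 5.59e-11 to 1.0). Leaving out control culture 1 gave −2.95 (edgeR adjusted p = 0.0324), leaving out control culture 2 gave −1.45 and leaving out mutant culture 3 gave −3.88, while the value was −2.50 with no filter on low counts (edgeR adjusted p = 5.59e-11). With each culture's single most Reg4-rich cell removed, a choice made once the values were known, it was −2.75 (edgeR adjusted p = 0.787). The left-out barcode that both other hashtag methods placed in mutant culture 2 held 162 Reg4 UMIs, and it was given no class here.

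In goblet/Paneth-like cells Reg4 had 1540, 1482 and 684 CPM in mutant cultures 1, 2 and 3 and 1457 and 1244 CPM in control cultures 1 and 2. Mutant culture 3 was low and the other 4 cultures lay together (log2 fold change −0.27, SE 0.306, edgeR adjusted p = 1.0, 0.04 without mutant culture 3). Over all cells outside the endocrine-like class, likewise chosen once the values were known, Reg4 stood at −0.64 (SE 0.128, edgeR adjusted p = 1.0). Goblet/Paneth-like cells made up 5.67, 4.63 and 11.2% of mutant cultures and 6.19 and 10.03% of control cultures. Over all cells the 8 goblet markers summed to 1220, 1111 and 1930 CPM in mutant and 1725 and 2072 CPM in control cultures, and the 8 Paneth markers to 2317, 2229 and 1028 CPM in mutant and 6754 and 2622 CPM in control cultures, whose part in the Reg4 result was not tested. In stem-like cells, at its low level there, Reg4 had 13.2, 15 and 12.1 CPM in mutant and 11.4 and 11.8 CPM in control cultures, a log2 fold change of 0.15 (SE 0.327, edgeR adjusted p = 0.987), where 1 of the 4 members tested, Reg4, lay higher in all mutant cultures, as did 14.7% of genes. None of the 4 passed there, where 0.0131% of 7645 genes passed edgeR (448 with an unadjusted p under 0.05) and DESeq2 called 1 gene.

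As cells, after thinning, 9.88, 6.43 and 9.66% of cells in mutant cultures 1, 2 and 3 held Reg4, against 11.3 and 13.8% in control cultures 1 and 2. All mutant cultures lay below both control cultures, with a mean difference of −3.89 percentage points (two-sided exact permutation test, p = 0.1, the smallest possible). Without thinning the shares were 24.8, 21.4 and 23.9% in mutant and 21.4 and 25.8% in control cultures, which overlapped (exact permutation p = 0.9). They also overlapped with MULTIseqDemux calls, at 7.92, 9.90 and 9.42% in mutant and 7.99 and 14.8% in control cultures (−2.31 points, exact permutation p = 0.4). Calling within each cell gave 12.9, 8.15 and 11.5% in mutant and 12.9 and 12.5% in control cultures, again with overlap (−1.87 points, exact permutation p = 0.4). Shares of cells with at least 3 Reg4 UMIs, unthinned, were 6.38, 3.91 and 7.11% in mutant and 8.67 and 9.17% in control cultures, without overlap (−3.12 points, exact permutation p = 0.2).

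Fev had 8, 23 and 20 UMIs in mutant cultures 1, 2 and 3, which are 1.28, 3.52 and 4.77 CPM, against 43 and 29 UMIs in control cultures 1 and 2, which are 5.93 and 4.14 CPM, over all cells. Mutant culture 1 was lowest and mutant culture 3 lay between the control cultures (−0.72 on the log2 scale, SE 0.473, edgeR adjusted p = 1.0). Without mutant culture 1 it was −0.31 and without control culture 1 −0.41, and it reached −1.07 without mutant culture 3. In endocrine-like cells the levels were 78.7, 251 and 225 CPM in mutant and 205 and 166 CPM in control cultures, with both control cultures inside the mutant range (−0.04, SE 0.420, edgeR adjusted p = 0.997). Of these cells, 4 of 7, 6 of 9 and 3 of 8 held Fev in mutant cultures, against 13 of 16 and 9 of 14 in control cultures. Lmx1a had 0, 0 and 1 UMI in mutant cultures, against 10 and 1 UMIs in control cultures, and was too low to be tested.

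**Figure D3:**
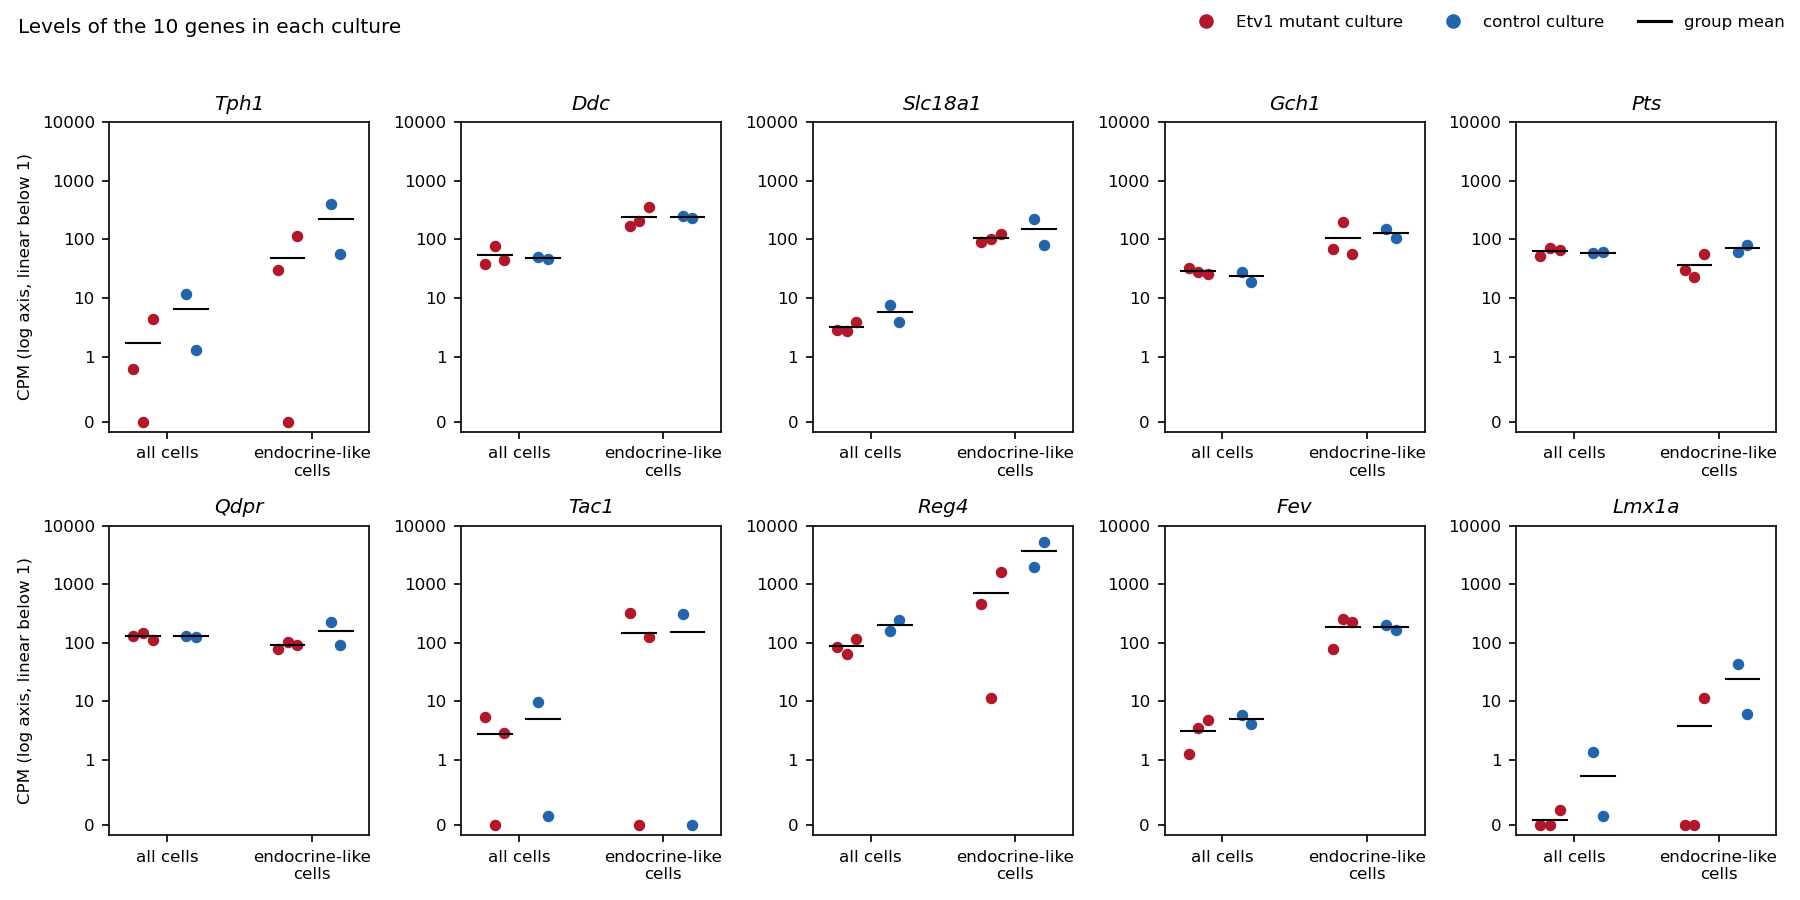
Level of each gene (y axis, CPM, log scale, linear below 1) in all cells and in endocrine-like cells of each culture (points; red, Etv1 mutant, left; blue, control, right), with a line at each group's mean. The mutant and control points are apart for Reg4 (63.6 to 115 CPM in mutant and 158 to 247 CPM in control cultures over all cells), whereas Tph1, Tac1 and Lmx1a spread widely within each group.

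**Figure D4:**
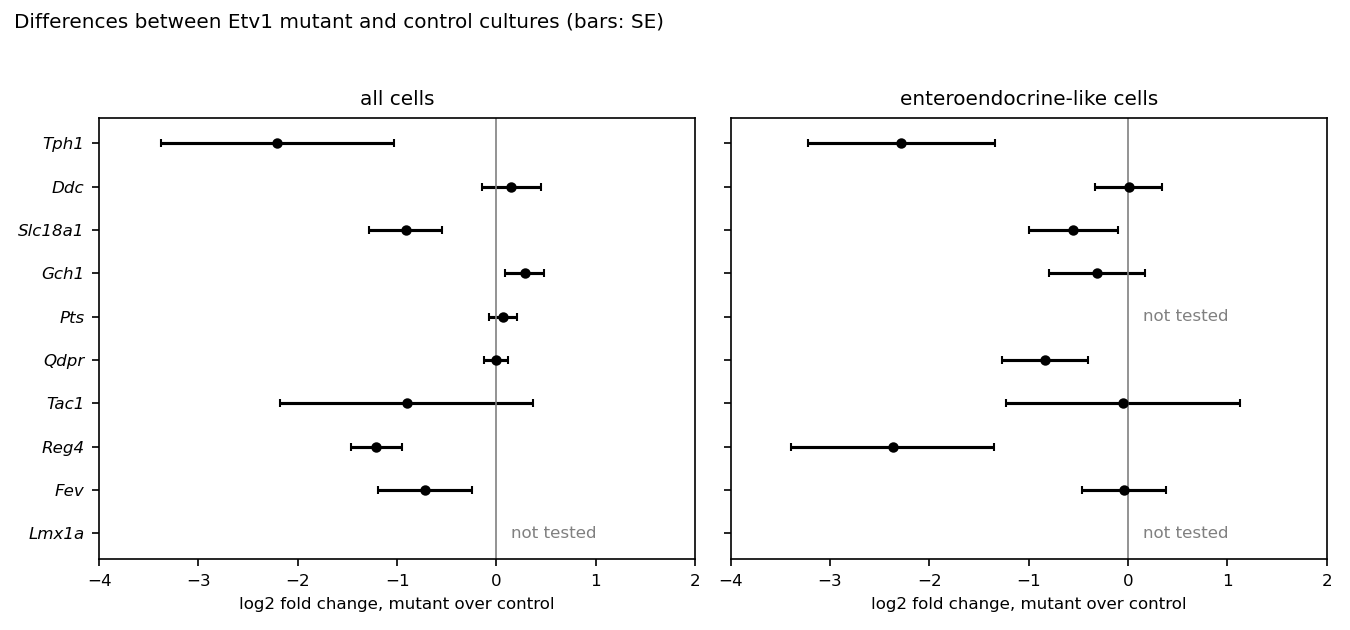
log2 fold change, mutant over control, of each gene (points, edgeR) with its SE (bars, computed from the F statistic), in all cells (left) and endocrine-like cells (right). Tph1 (−2.21 and −2.28) and Reg4 (−1.21 and −2.37) lie farthest below 0, Ddc, Gch1, Pts and Qdpr lie near 0 over all cells, and no member passed at an adjusted p of 0.05.

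The other genes around serotonin were read from 5 further lists. Of other tetrahydrobiopterin genes, Spr, Pcbd1, Pcbd2 and Gchfr were tested in all cells, and none passed, with all 4 above 0. The farthest from 0 of these were Gchfr, the regulator protein of Gch1 (0.25, SE 0.368), and Pcbd2 (0.11, SE 0.0841). In endocrine-like cells 2 of these were tested, Pcbd1 (−0.56, SE 0.263), which recycles the cofactor, and Spr (−0.52, SE 0.449), its last enzyme of synthesis, and neither passed (edgeR adjusted p = 0.946 for both).

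Of 14 genes of serotonin transport and breakdown, 8 were tested in all cells, 4 of them below and 4 above 0, with a median of 0.01, and none passed. Slc7a5, an amino acid transporter that carries tryptophan, stood at −0.30 (SE 0.146) and Aldh1a1, an aldehyde dehydrogenase, at 0.80 (SE 0.619). In the 54 endocrine-like cells the brain hydroxylase Tph2 and the melatonin genes Aanat and Asmt had 0 UMIs, the serotonin uptake transporter Slc6a4 and the other vesicular transporter Slc18a2 had 1 UMI each, and the degrading enzyme Maoa had 22. Slc18a1, with 88 UMIs, was thus the vesicular monoamine transporter detected in these cells beyond single UMIs.

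Of 17 genes listed for enterochromaffin cells, sensing genes among them, 8 were tested in all cells, and none passed. All 8 lay below 0, with a median of −0.96 against 0.00 for all genes. The 4 with the smallest p were Sct, the secretin gene (−2.30, SE 0.501), Scn3a (−1.87, SE 0.647), Pcsk1, a prohormone convertase gene (−1.08, SE 0.402), and Chgb, a granule protein gene (−1.68, SE 0.627), with an adjusted p of 1.0 each. In all cells Sct had 42.3, 47.1 and 29.3 CPM in mutant and 78.7 and 315 CPM in control cultures. In control culture 2, 1 cell held 923 Sct UMIs and another 862. Chgb had 122, 87.4 and 51.0 CPM in mutant and 464 and 87.7 CPM in control cultures, with overlap. Scn3a and Pcsk1 did not overlap. In endocrine-like cells 6 of the list were tested, 5 of them below 0, with a median of −0.14 against 0.02 for all genes, and none passed. There Sct overlapped, at 1377, 2763 and 338 CPM in mutant and 1561 and 12601 CPM in control cultures. The list is not limited to enterochromaffin cells. Sct, which is also in the peptide hormone list, had 5563 CPM in the 43 endocrine-like cells without Tph1. It had 320.5 CPM in the 8 with at least 3 Tph1 UMIs and 1689 CPM in the 3 with 1 or 2. Chgb and Chga went the other way, with 31409 and 6954 CPM in these 8 cells against 4063 and 1708 CPM without Tph1. Whether the values below 0 come from enterochromaffin cells was not tested. The channel genes Trpa1, Piezo2 and Trpc4 had 0 UMIs in the 54 cells, whereas the bile acid receptor Gpbar1 had 34 UMIs in 8 cells and Ffar2, a short-chain fatty acid receptor, 48 UMIs in 22 cells. A limit is that a count of 0 allows up to 5.56% of 54 cells to hold a UMI.

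Of 16 transcription factors of the endocrine lineage, 11 were tested in all cells, 6 below and 5 above 0, and none passed. In endocrine-like cells 5 were tested and all 5 lay above 0, with a median of 0.92 against 0.02 for all genes. This is the opposite side from 7 of the 8 members, of which Tac1 and Fev lay close to 0. The 3 with the smallest p were Neurog3, the gene that starts endocrine fate (1.37, SE 0.394), Sox4 (0.95, SE 0.289) and Insm1 (0.92, SE 0.294), and none passed (edgeR adjusted p = 0.714, 0.714 and 0.794). Of 12 peptide hormone genes, 7 were tested in all cells and 6 lay below 0, and in endocrine-like cells all 5 tested did. Pyy was the gene called lower in both (−5.86 and −8.37 on the log2 scale). Of its 1858 UMIs in the endocrine-like class, 1 cell of control culture 1 held 927 and 1 cell of control culture 2 held 895.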

How the data were processed

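Single-cell RNA and hashtag libraries of 3 Etv1 mutant and 2 control cultures were analysed. The deposited RNA table holds estimated counts of UMIs per gene and barcode, of which 95.6% of values above 0 were whole within 1e-06. The deposited hashtag table holds counts per hashtag and barcode. Per the submitters' processing notes, the genome was mm10 and the tools named are Salmon 1.4.0 with alevin, Seurat 4.3.0 and Cell Ranger 6.1.0, and the role of each, the counting strand and any removal of doublets are not given in the sources used here. Of the value columns that belong to single samples, 0 were left unused.

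Barcodes with under 500 genes or over 25% mitochondrial counts were removed, leaving 2725. HTODemux (Seurat 5.3.0, positive quantile 0.99) assigned 1432 to a culture, and 1054 barcodes without a hashtag and 239 with several were left out of the comparisons. Where both made a call, MULTIseqDemux gave the same culture for 1437 of 1438 barcodes, and calling within each cell for 1272 of 1544. Scrublet marked 3 of 2725 barcodes (0.11%), so doublets were removed only through hashtags. Cells were clustered with scanpy 1.11.5 (2000 variable genes, 30 components, 15 neighbours, resolution 0.8) and classes were named where 3 or more listed markers reached a log2 fold of 0.5 and were found in 25% or more of the cells. The enterocyte-like class joins a cluster of 157 cells led by Lgals3 and Areg with one of 80 cells led by Apoa1 and Apoc3.

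UMIs were summed per culture and class, rounded to whole numbers and tested with edgeR 4.0.16, over the 5 cultures and with no covariate, with Benjamini-Hochberg adjustment and DESeq2 1.42.0 as an alternative (R 4.3.3). P-values measure the spread between cultures, which the labels call biological replicates. Shares were compared with an exact permutation test over 10 splits after thinning to 3832 UMIs, which left out 144 shallower cells, 39, 32 and 21 in mutant and 21 and 31 in control cultures. Intervals are at 95% and floors at 3 counts. Tested on simulated data, the all-cell comparison recovered 99.0% of changes of log2 3 and 31.3% of log2 1 with 5 false calls among 10959 genes. The endocrine-like one recovered 100% and 33.7% with 3 among 1810. The simulation gave every gene the same fixed spread between cultures of a genotype. These recoveries therefore do not hold for genes that vary more, as Tph1, Tac1 and Reg4 did in endocrine-like cells.

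The members and lists were chosen with earlier results of these data known. Genes named are the 10 members, Etv1, the up to 4 tested genes of smallest p per list, the 5 genes most like Tph1 and the 5 most like Reg4, and called genes. A few members of these lists are not reported here. Other names, such as genes listed for their UMIs in endocrine-like cells, were chosen after their values were seen.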

Additional observations from a re-analysis of the deposited data

Results flagged for a closer look

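The 1054 barcodes that passed the cell filter but had no hashtag stood outside every comparison and held UMIs of all 10 genes, with 25 of Tph1, 1165 of Ddc, 60 of Slc18a1, 650 of Gch1, 736 of Pts, 1760 of Qdpr, 28 of Tac1, 1002 of Reg4, 18 of Fev and 4 of Lmx1a. Scaled to depth, Ddc was at 90.3 CPM and Gch1 at 50.4 CPM in these barcodes, against 51.5 and 26.4 CPM in barcodes assigned to a culture.

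Reg4 was lower in every mutant than in every control culture in endocrine-like cells (log2 fold change −2.37) and higher in every mutant culture in stem-like cells (0.15), and the difference between the classes was not tested.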

How the results depend on the processing

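For the member genes, 260 alternative values kept direction and side of the threshold, 38 turned in direction and 5 newly passed. Genes called at an adjusted p of 0.05 over all cells numbered 1 by edgeR, 9 with DESeq2, 2 with MULTIseqDemux calls, 0 with equal cell numbers, 2 with calling within each cell, 2 with no filter on low counts and 1 to 6 with a culture left out. In endocrine-like cells they numbered 1, and 2, 2, 0, 2, 35 and 1 to 9 in the same order of settings. In goblet/Paneth-like cells 0 became 1 with DESeq2, 46 with no filter and 0 to 30 with a culture left out, and in enterocyte-like cells 0 became 49 with no filter and 0 to 3. In stem-like cells 1 became 0 with either other hashtag call, 20 with no filter and 0 to 12, and in cycling-like cells 3 became 5 with DESeq2, 0 with MULTIseqDemux, 1 with calling within each cell, 39 with no filter and 1 to 12. The cause of these moves was not tested.

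Directions that turned are given as log2 fold changes. Over all cells, calling within each cell gave −0.15 for Ddc and −0.0796 for Gch1, MULTIseqDemux gave 0.30 for Fev, and Qdpr was 0.000398 with DESeq2, 0.00332 with MULTIseqDemux and 0.00491 outside the endocrine-like class. In endocrine-like cells Ddc was −0.0404 with calling within each cell and −0.0912 with no filter, Gch1 0.30 with MULTIseqDemux, Tac1 0.20 with MULTIseqDemux, 0.16 with equal cell numbers and 0.53 with calling within each cell, and Fev 0.34, 0.50 and 0.12 under these 3 settings and 0.00683 at a mitochondrial limit of 10%. Reg4 in goblet/Paneth-like cells was 0.0734 with equal cell numbers. In enterocyte-like cells Ddc was −0.52 with calling within each cell, and Gch1 −0.13 with it, −0.0843 with MULTIseqDemux and −0.0240 at the mitochondrial limit.

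With a culture left out, the ranges over all cells were −3.07 to 0.21 for Tph1, −0.25 to 0.37 for Ddc, −0.00905 to 0.63 for Gch1, −0.0421 to 0.19 for Pts, −0.10 to 0.0800 for Qdpr, −2.09 to 4.08 for Tac1, −1.35 to −0.30 for Slc18a1, −1.07 to −0.31 for Fev and −1.49 to −0.88 for Reg4. In endocrine-like cells they were −3.04 to −0.27 for Tph1, −0.37 to 0.21 for Ddc, −1.05 to 0.34 for Slc18a1, −1.02 to −0.0154 for Gch1, −1.40 to 7.10 for Tac1, −3.88 to −1.45 for Reg4 and −0.31 to 0.32 for Fev, and Reg4 in goblet/Paneth-like cells ranged over −0.50 to 0.0417 and Ddc in enterocyte-like cells over −0.46 to 0.59. Left-out shares ranged over −1.47 to −0.440 points for Tph1, −5.18 to −2.60 for Reg4 and −1.70 to −0.763 for endocrine-like cells. Where 1 control culture remained, it was assumed to vary like the others.

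No paired analysis was possible because the labels give the cultures no replicate numbers shared between mutant and control. The main limits are 2 control cultures, 54 endocrine-like cells, of which 8 held nearly all Tph1, and low hashtag counts. Of the 54 endocrine-like cells, MULTIseqDemux called 41, and all 41 kept their culture. Calling within each cell called 48 of them, and 38 kept their culture.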

Other observations

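Among the 54 endocrine-like cells, Etv1 was found in 5 of the 11 cells with Tph1 and in 18 of the 43 without. These counts pool Etv1 mutant and control cells. Cells with Tph1 numbered 1, 0 and 1 in mutant cultures 1, 2 and 3 and 6 and 3 in control cultures 1 and 2. The Etv1 shares therefore cannot be told apart from genotype. Of the peptide hormone genes, Gcg was found in 1 of the 11 cells with Tph1 and in 6 of the 43 without, Cck in 4 and 8, Ghrl in 1 and 5, Nts in 0 and 2, Pyy in 1 and 9, and Sct in 8 and 25 of the same cells. When barcodes with no hashtag were clustered together with the assigned ones, the share of each gene's UMIs in the endocrine-like class was 87.4% for Tph1, 93.6% for Fev and 62.6% for Slc18a1. In that clustering Tph1 was found in 4 of 727 stem-like and 2 of 457 cycling-like cells, and Fev in 2 cells of each class. The stem-like class there took in a shallow cluster of 275 cells.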
